A study of Mus musculus with 14 samples.

Results

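The 38 genes described here encode the chaperonin CCT, the prefoldin subunits with the related cofactor Pdcl3, heat shock proteins, and the tubulins and beta-actin that these proteins fold. They were taken by symbol from the 49315 genes of a raw count table of primary microglia from TIMP2 knockout (KO) and wild-type (WT) mice, and they fall into 8 CCT subunits, 7 genes of the prefoldin class, 10 tubulins, beta-actin and 12 heat shock genes. The genes were chosen by the KO over WT fold changes of these same libraries, in which protein folding pathways had stood out, so the KO over WT values below describe the choice and are not a test of it. Each genotype had 7 libraries, and each library was a separate isolation from the pooled forebrains of 5 pups of both sexes at P6-P7. All mice were C57BL/6 and the KO was global rather than limited to a cell type, and the labels name no treatment for either group. Microglia, the resident macrophages of the brain, were selected with CD11b microbeads and cultured before RNA was collected, so that cells other than microglia could remain in a culture.

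CCT is a ring-shaped chaperonin of the cytosol that encloses newly made proteins and is best known for folding actin and tubulin. Prefoldin captures these proteins while they are being made and passes them to CCT, and the heat shock proteins of the HSP70, HSP40 and HSP90 families fold and protect a far wider range of proteins. Microglia depend on actin and microtubules to move their processes and to engulf material, and several heat shock genes are switched on by the transcription factor HSF1 when unfolded proteins accumulate.

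Between 38875344 and 48070236 reads were counted per library, and 15700 genes, with all 38 folding and cytoskeletal genes among them, passed the filter on low counts. Timp2 (chromosome 11, 118301069 to 118355740 in GRCm38), an inhibitor of metalloproteinases and the targeted gene, lay between 120 and 129 CPM (counts scaled to a common library size) in the KO libraries, with a median of 121, and between 398 and 495 CPM in the WT libraries, with a median of 476, so that the KO libraries held on average 26.4% of the WT level. Its log2 fold change was -1.92 (edgeR quasi-likelihood test, adjusted p = 1.53e-12), and the groups did not overlap (two-sided exact permutation test over all 3432 splits, p = 0.000583, the smallest this design allows). The 14 microglia markers summed to between 13171 and 16429 CPM in each library. Astrocyte markers summed to between 33 and 159 CPM (median 55.2) in KO and to between 37.8 and 299 CPM (median 105) in WT, and neuron markers to between 47.7 and 87.9 CPM in KO and between 58.7 and 97.8 CPM in WT. Oligodendrocyte lineage markers summed to between 148 and 190 CPM in KO and between 155 and 210 CPM in WT, and endothelial and mural markers to between 52.7 and 75.3 CPM in KO and between 53.5 and 60.9 CPM in WT. No marker of these lists was at 0 in every library. In bulk RNA, fewer cells of a type and less RNA per cell cannot be told apart.

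Levels per length, in CPM per kilobase of exon, were highest for beta-actin, with 2977 ± 140 (SD, n = 7) in WT. The next were Hsp90ab1, the constitutive cytosolic HSP90, with 398 ± 4.80, and Hspa8, the constitutive cytosolic HSP70, with 268 ± 8.25 (both SD, n = 7, WT). Tubb5, a widely expressed beta-tubulin, followed with 191 ± 7.46, Hspa5, the HSP70 of the endoplasmic reticulum also called BiP, with 160 ± 4.16, and Tuba1b, a widely expressed alpha-tubulin, with 156 ± 6.25 (SD, n = 7, WT). The values of Hspa5 and Tuba1b differed by less than the SD of Tuba1b. At the other end, the stress-inducible HSP70 genes Hspa1a and Hspa1b stood at 0.281 ± 0.0720 and 0.345 ± 0.118 CPM per kilobase in WT, and each was counted with only 20 to 66 reads per library. The CCT subunits, which enter the complex in equal number, ranged in WT from 21.4 CPM per kilobase for Cct3 to 73.1 for Cct2, a ratio of 3.41 that became 2.34 when the longest transcript of each gene was used for its length. The gene with the highest level per length of each class (Cct2, Pfdn5, Tuba1b, Tubb5, Hspa8, Hsp90ab1, Hspd1 and Dnaja1) was the same with either length.

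**Figure D1:**
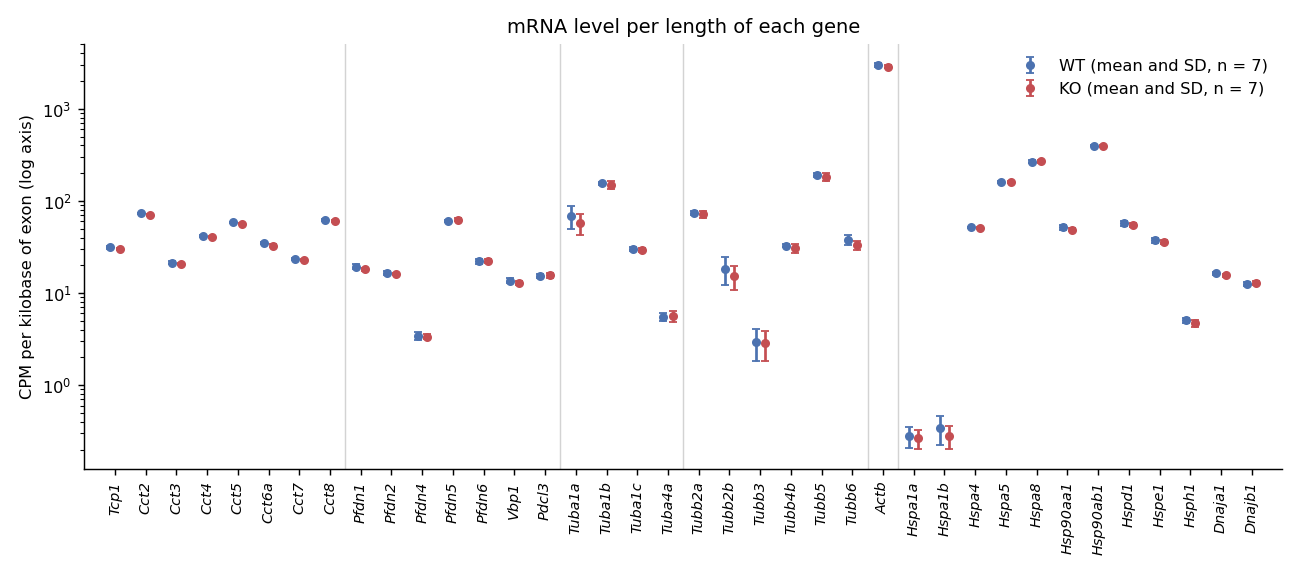
Level of each of the 38 genes in CPM per kilobase of exon on a log axis, as the mean and SD of 7 WT (blue) and 7 KO (red) libraries, with vertical lines between the classes. Beta-actin stands highest at 2977 in WT, Hspa1a and Hspa1b lowest at 0.281 and 0.345, and the paired points of a gene lie close together.

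In KO over WT, 31 of the 38 genes had a log2 fold change below 0, where 49.2% of all 15700 tested genes did, and their median was -0.05, where the median of all tested genes was 0.0016. This contrast proposed the genes, so nothing is read from the difference. None passed an adjusted p under 0.05 in edgeR (0 of 38, smallest adjusted p = 0.943, background 0.0191%), and none did in DESeq2. At an unadjusted p under 0.05, 5 genes were lower in KO (Cct2, Cct5, Cct6a, Tcp1 and Pfdn1) where 1.62% of all tested genes were, and 0 were higher, where 1.75% were. For all 38 genes the KO and WT libraries overlapped, and every KO library lay below every WT library for 0.0764% of all tested genes and above for 0.00637%. The number lower at an unadjusted p was 12 without KO replicate 1, where 2.99% of all tested genes were, and 8 without KO replicate 2, WT replicate 6 or WT replicate 7 (2.17%, 1.49% and 1.86%). It was 11 with upper-quartile scaling (2.54%) or library size only (2.55%), 8 without the filter on low counts (2.03%) and 9 with DESeq2 (2.01%). Cct2, Cct5, Cct6a and Tcp1 were among the lower genes in each of the 25 fits and Pfdn1 in 18. These fits reuse the same libraries, and the share of all tested genes that recurred in this way was not computed. Nothing is read from the recurrence.

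**Figure D2:**
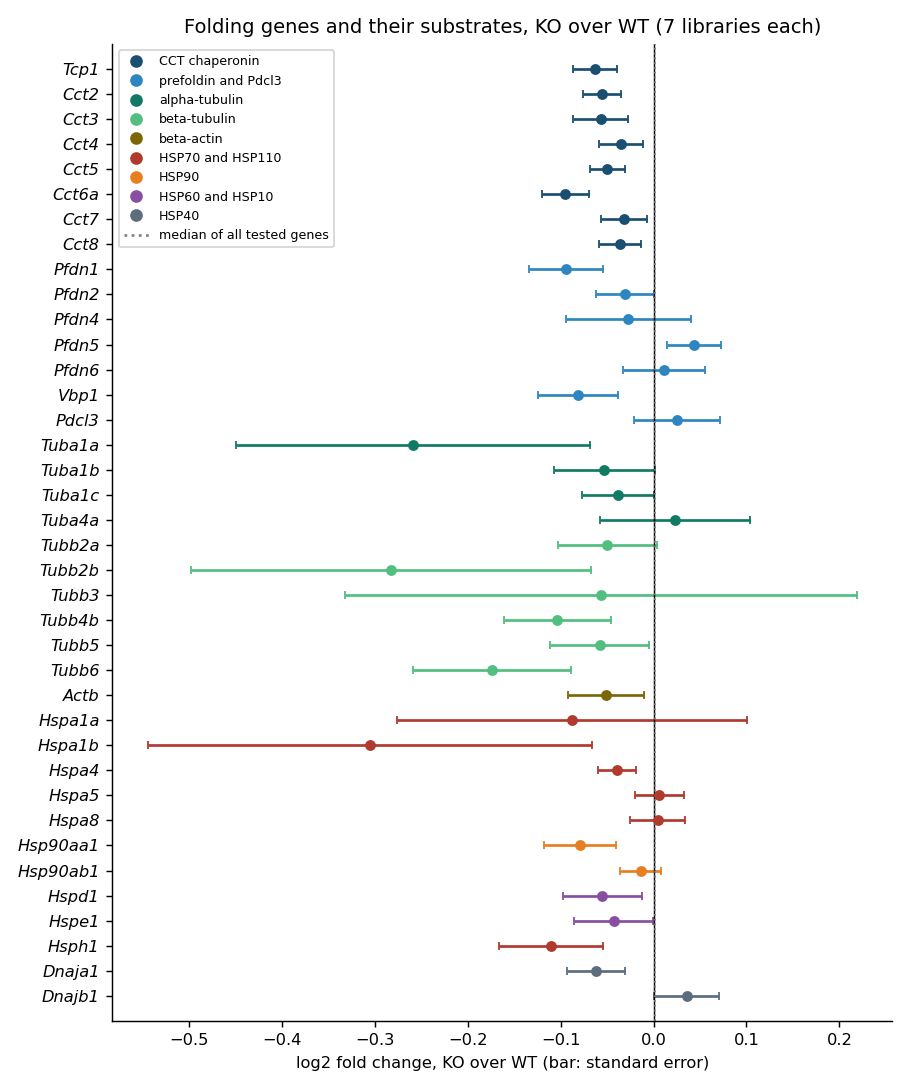
Log2 fold change (KO over WT) of each gene with its standard error, coloured by class, with a solid line at 0 and a dotted line at the median of all tested genes. Most points lie slightly left of 0, the CCT subunits between -0.09 and -0.03, while Tuba1a, Tubb2b and Hspa1b lie farthest left with the widest errors beside Tubb3.

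All 8 CCT subunits had a log2 fold change below 0, from -0.09 for Cct6a to -0.03 for Cct7, with a median of -0.05. Cct6a (chromosome 5, 129786998 to 129846371) lay between 112 and 124 CPM in KO, with a median of 118, and between 123 and 129 CPM in WT, with a median of 128. Of the 7 KO libraries, 6 lay under the lowest WT library, and the log2 fold change was -0.09 with a standard error (SE) of 0.03. Cct2 (chromosome 10, 117051001 to 117063814) lay between 177 and 183 CPM in KO, with a median of 179, and between 181 and 195 CPM in WT, with a median of 186. For this gene 6 of 7 WT libraries were above the highest KO library, and the log2 fold change was -0.06 (SE 0.02).

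Tcp1, which encodes the alpha subunit after which the complex was first named, ranged from 147 to 158 CPM in KO (median 149) and from 152 to 166 CPM in WT (median 157), and 6 KO libraries lay below the lowest WT library (log2 fold change -0.06, SE 0.02). About 16.9% of the exon length of Tcp1 overlaps neighbouring genes, Acat3 and Mrpl18 among them, and the strand setting of the counting is not given, so part of its count may belong to them. For Cct6a the share is 15.3%, shared with Psph and Snora15. Cct5 had 153 to 159 CPM in KO (median 155) against 158 to 165 CPM in WT (median 163), with 5 KO libraries under the lowest WT library (log2 fold change -0.05, SE 0.02). The 4 other subunits, Cct3, Cct4, Cct7 and Cct8, had log2 fold changes of -0.06, -0.03, -0.03 and -0.04 with SEs of 0.02 to 0.03. Together the subunits took 0.123% to 0.129% of the counts of a KO library and 0.128% to 0.133% of a WT library, so the ranges overlapped at their ends.

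**Figure D3:**
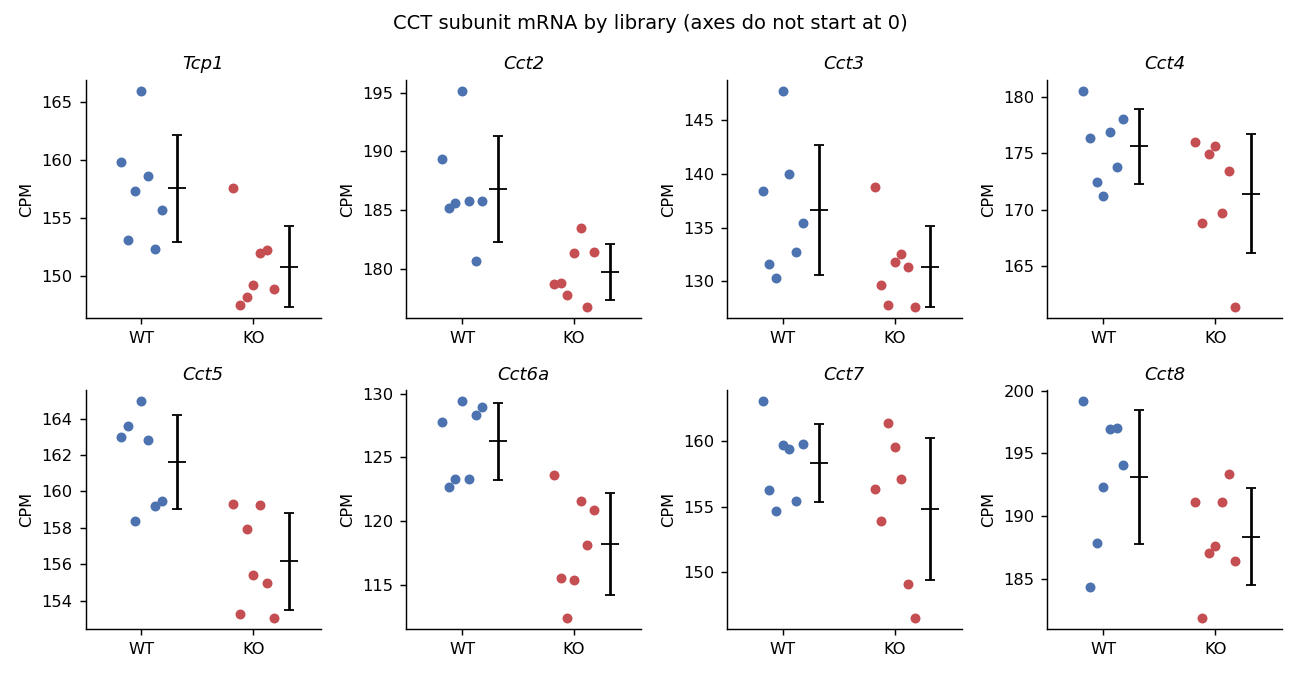
CPM of each CCT subunit in the 7 WT (blue) and 7 KO (red) libraries, with the mean and SD of each group in black, on axes that do not start at 0. In each panel the KO mean is below the WT mean and the points of the groups overlap, least for Cct2, Cct5 and Cct6a.

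The CCT genes also varied little within a genotype. The SD of their log2 CPM around the genotype means was 0.02 to 0.05, against a median of 0.15 over all tested genes (quartiles 0.08 and 0.36), and Cct5 had the smallest, at a level that 0.108% of tested genes lay under. Hsp90ab1 (SD 0.03), Hspa4 (0.03) and Cct2 (0.03) were as steady. The SD depends on the level of a gene, and these genes are highly expressed, with a mean CPM above that of at least 89.0% of tested genes for each CCT subunit.

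In the prefoldin class 4 of 7 genes had a log2 fold change below 0 and the median was -0.03, which turned to 0.013 without WT replicate 1. Pfdn1 (chromosome 18, 36403676 to 36454524), a beta-type subunit of prefoldin, lay between 19.2 and 21.2 CPM in KO (median 19.8) and between 20.2 and 23.6 CPM in WT (median 20.8), with 4 KO libraries under the lowest WT library and a log2 fold change of -0.09 (SE 0.04). Pfdn5, an alpha-type subunit and the gene of the class with the highest level per length, had a log2 fold change above 0, with 82.7 to 90.7 CPM in KO (median 87.9) and 79.1 to 88.8 CPM in WT (median 83.9), and 3 KO libraries above the highest WT library (0.04, SE 0.03). Vbp1, the second alpha-type subunit, had -0.08 (SE 0.04), Pfdn2 -0.03, Pfdn4 -0.03, Pfdn6 0.01 and Pdcl3, a phosducin-like protein that assists CCT, 0.03, each with an SE of 0.03 to 0.07. For Pfdn2 and Pfdn4, 27.6% and 28.7% of the exon length overlaps other annotated genes.

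Of the proteins that CCT folds, beta-actin (Actb) lay between 7218 and 8136 CPM in KO (median 7800) and between 7174 and 8267 CPM in WT (median 8059). The lowest WT library, replicate 1, was under the lowest KO library, and the log2 fold change was -0.05 (SE 0.04). Among the 10 tubulins 9 had a log2 fold change below 0, with a median of -0.05 for the 4 alpha-tubulins and -0.08 for the 6 beta-tubulins.

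Tuba1b lay between 244 and 325 CPM in KO (median 279) and between 274 and 310 CPM in WT (median 290), so that the KO libraries held both the lowest and the highest value (log2 fold change -0.05, SE 0.05). Tubb5 showed the same order of its extremes, with 534 to 682 CPM in KO (median 601) and 598 to 679 CPM in WT (median 631), and a log2 fold change of -0.06 (SE 0.05). Tuba1a, the alpha-tubulin of developing neurons, spread far more, from 64.3 to 145 CPM in KO (median 99.2) and from 69.8 to 178 CPM in WT (median 114), with a log2 fold change of -0.26 (SE 0.19). Tubb2b, a beta-tubulin of the developing brain, ranged from 24.3 to 52.3 CPM in KO (median 30.1) and from 23.9 to 67.3 CPM in WT (median 37.8), with a log2 fold change of -0.28 (SE 0.22). For Tuba1a and for Tubb2b, 2 WT libraries lay above the highest KO library. At the low end, 1 KO library lay below the lowest WT value of Tuba1a, while the lowest value of Tubb2b was in WT.

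The other tubulins had log2 fold changes of -0.17 (SE 0.08) for Tubb6, -0.10 (SE 0.06) for Tubb4b, -0.05 (SE 0.05) for Tubb2a, -0.04 (SE 0.04) for Tuba1c, 0.02 (SE 0.08) for Tuba4a and -0.06 (SE 0.28) for the neuronal Tubb3, which was counted at only 2.55 to 8.81 CPM. Several tubulins are close copies. Of the 100-base words in the annotated transcripts of Tuba1a and Tuba1b, 65.8% and 65.2% also occur in another gene, most often Tuba1c, and 26.2% and 27.4% of their exon length overlaps other annotated genes. For Tubb2a and Tubb2b, which share words with each other, 36.9% and 26.0% of the words occur in another gene. The shares for Tuba1c, Tuba4a and Tubb4b are 46.0%, 32.4% and 22.0%. For Tuba4a 37.3% of the exon length overlaps Stk16. Counts of these genes are uncertain to the extent that reads of shared stretches were dropped or split, while Tubb3, Tubb5 and Tubb6 share none.

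Among the 12 heat shock genes 9 had a log2 fold change below 0, with a median of -0.05. Hspa8 lay between 1102 and 1214 CPM in KO (median 1159) and between 1111 and 1204 CPM in WT (median 1136), and Hsp90ab1 between 1143 and 1212 CPM in KO (median 1184) and between 1174 and 1214 CPM in WT (median 1196). Their log2 fold changes were 0.0043 (SE 0.03) and -0.01 (SE 0.02). For each of them 2 KO libraries lay below the lowest WT library, with 1 KO library above the highest WT value for Hspa8 and 1 WT library above the highest KO value for Hsp90ab1. Of the 100-base words of Hspa8, 28.5% occur in another gene, most often Gm26825, so its count and level are uncertain to that extent. Hsp90aa1, the stress-inducible cytosolic HSP90, had 183 to 204 CPM in KO (median 192) and 183 to 221 CPM in WT (median 205), with 4 WT libraries above the highest KO library and a log2 fold change of -0.08 (SE 0.04). Dnaja1, an HSP40 that delivers clients to HSP70, had 128 to 143 CPM in KO (median 134) and 131 to 147 CPM in WT (median 139), with 3 WT libraries above the highest KO library and a log2 fold change of -0.06 (SE 0.03).

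Hspd1, the HSP60 chaperonin of mitochondria, had 137 to 162 CPM in KO (median 141) and 145 to 169 CPM in WT (median 149). Of the KO libraries 5 lay under the lowest WT library, and the log2 fold change was -0.06 (SE 0.04), beside -0.04 (SE 0.04) for Hspe1, its HSP10 partner. Hspa1b was counted at 0.494 to 1.12 CPM in KO (median 0.740) and at 0.551 to 1.36 CPM in WT (median 1.08). It had the lowest log2 fold change of all 38 genes, -0.30, with an SE of 0.24, and its near-identical copy Hspa1a had -0.09 (SE 0.19). The remaining genes had -0.11 (SE 0.06) for Hsph1 and -0.04 (SE 0.02) for Hspa4, which both reset the nucleotide of HSP70, 0.01 (SE 0.03) for Hspa5 and 0.04 (SE 0.03) for Dnajb1. For Hspa4, 6 of 7 KO libraries lay below the lowest WT library, while KO replicate 1 was the highest of all 14.

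Heat shock elements, the sites of HSF1, are runs of the unit GAA in alternating direction. In RefSeq promoter windows of 300 bases (250 before and 50 from the transcription start, which is position 0, GRCm38.p6), which were found for 29 of the 38 genes, a run of 3 such units, in which GAA and its reverse complement TTC alternate with NN (any bases) between them, was present in 0.603% of all 32851 windows. A run that begins with GAA is the reverse complement of one that begins with TTC, and both orders were searched, so the search covered both strands, and a window with overlapping runs was counted once. Among the 38 genes, windows of Hspd1, Hspe1 and Hsph1 held one. The divergent genes Hspd1 and Hspe1 share it, at chr1:55088059-55088076, since a window of Hspd1 (chr1:55087883-55088182, minus strand) overlaps that of Hspe1 (chr1:55087898-55088197, plus strand) by 285 bases. The windows of Hspe1 and of Hsph1 (chr5:149636287-149636586, minus strand) are shown for this run, and those of Hspa1a (chr17:34972107-34972406, minus strand) and Hspa1b (chr17:34959189-34959488, minus strand) because they are identical at 296 of 300 positions and hold 1 shorter run of 2 units, a form (GAANNTTC or TTCNNGAA) found in 15.1% of all windows. Capitals mark the runs of 3 or more units in Hspe1 and Hsph1, where shorter runs stay in lower case, and the run of 2 units in Hspa1a and Hspa1b.
Hspe1: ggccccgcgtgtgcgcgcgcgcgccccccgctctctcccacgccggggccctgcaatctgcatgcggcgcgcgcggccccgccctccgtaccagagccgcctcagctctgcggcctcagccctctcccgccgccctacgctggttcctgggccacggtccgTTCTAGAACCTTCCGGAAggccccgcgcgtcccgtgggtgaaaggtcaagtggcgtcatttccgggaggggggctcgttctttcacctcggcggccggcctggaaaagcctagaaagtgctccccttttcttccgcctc
Hsph1: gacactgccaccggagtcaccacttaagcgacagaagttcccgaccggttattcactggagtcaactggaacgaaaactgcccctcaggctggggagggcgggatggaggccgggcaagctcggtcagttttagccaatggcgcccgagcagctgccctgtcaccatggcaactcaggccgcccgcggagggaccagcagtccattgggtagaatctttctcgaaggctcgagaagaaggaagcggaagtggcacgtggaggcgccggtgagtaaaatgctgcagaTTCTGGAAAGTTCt
Hspa1a: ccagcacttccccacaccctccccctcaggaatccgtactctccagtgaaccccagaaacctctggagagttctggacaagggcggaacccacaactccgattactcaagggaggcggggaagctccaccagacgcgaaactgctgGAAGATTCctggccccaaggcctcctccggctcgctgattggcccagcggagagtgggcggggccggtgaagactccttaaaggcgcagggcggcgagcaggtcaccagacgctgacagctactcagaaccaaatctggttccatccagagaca
Hspa1b: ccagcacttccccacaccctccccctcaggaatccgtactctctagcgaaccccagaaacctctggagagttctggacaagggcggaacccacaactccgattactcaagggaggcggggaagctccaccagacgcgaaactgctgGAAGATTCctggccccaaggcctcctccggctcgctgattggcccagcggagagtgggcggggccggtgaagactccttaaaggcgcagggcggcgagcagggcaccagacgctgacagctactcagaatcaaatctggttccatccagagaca

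The run lies from position -89 to -72 in the window of Hspe1 and from position 36 to 48, within the transcript, in that of Hsph1. The 2-unit form also occurred in windows of Cct2, Cct5, Cct6a, Dnaja1, Tuba1c and Tubb5. Units that differ from GAA or TTC at any base were not searched for. A match is a description of letters and does not show that a factor was bound in these cells. Of the transcripts of Hspa1a and Hspa1b, 56.5% and 49.9% of the 100-base words are shared, so their counts cannot be fully assigned to one or the other copy.

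Differences between libraries of one genotype were not used to propose the genes, and they were compared next. Each log2 CPM was expressed as the deviation from the mean of its genotype over the 14 libraries, which share their library scaling. The correlations were tested with 100000 permutations within genotype (two-sided), with Benjamini-Hochberg adjustment over the 703 pairs of the 38 genes. Of these pairs 19 passed with a positive and 7 with a negative Pearson's r. How many of all pairs of tested genes would pass was not computed. An r over 0.7 was reached by 4.41% of the 703 pairs, where 2.39% of all pairs of tested genes did. Among the tubulins 28.9% of 45 pairs had an r over 0.7, and the median r was 0.44, beside 0.38 within CCT, 0.13 within prefoldin, 0.12 among the heat shock genes and 0 over all pairs of tested genes. When each library was left out in turn, the number of pairs past the threshold fell to between 8 (without KO replicate 1) and 19 (without KO replicate 4), with a change of over 1.5 times for every library other than KO replicate 4 and WT replicate 1, and 6 pairs passed in every case.

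**Figure D4:**
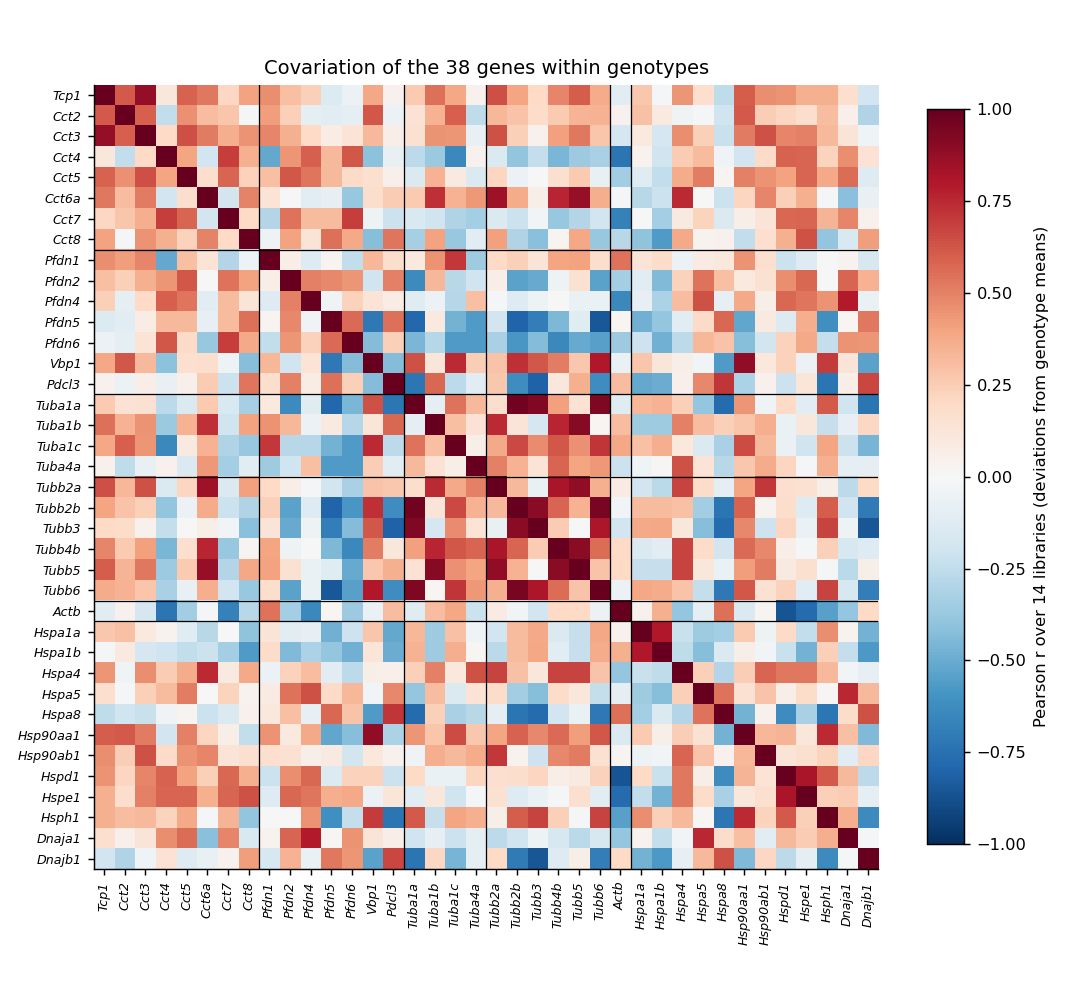
Pearson's r between the deviations of each pair of the 38 genes from their genotype means over 14 libraries, from -1 (blue) to 1 (red), with black lines between the classes. Tuba1a, Tubb2b, Tubb3 and Tubb6 form 1 red group with r between 0.81 and 0.96. Another, with r between 0.73 and 0.91, holds Tuba1b, Tubb2a, Tubb4b, Tubb5 and Cct6a. In it Tuba1b did not pass an adjusted p under 0.05 (permutation test) with Tubb2a, Tubb4b or Cct6a. Neither did Tubb4b with Tubb2a or Cct6a.

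Of those 6 pairs 5 were among Tuba1a, Tubb2b, Tubb3 and Tubb6. Tuba1a and Tubb2b had r = 0.96 (rho = 0.95, permutation p = 1e-05, the smallest these permutations can give, adjusted p = 0.00703), with 0.94 in KO, 0.98 in WT and 0.94 without the 2 libraries farthest out. Tuba1a had r = 0.93 with Tubb6 (adjusted p = 0.00879, permutation test) and 0.92 with Tubb3 (adjusted p = 0.00879, permutation test), and neither Tubb3 nor Tubb6 shares a 100-base word with another gene. The sixth pair joined Vbp1 of prefoldin with Hsp90aa1 (r = 0.89, rho = 0.85, permutation test, adjusted p = 0.0169), with 0.76 in KO and 0.95 in WT. Hsp90aa1 shares 100-base words with other genes, most often Gm12346, so its count is uncertain to that extent. These pairs were singled out after their values were seen.

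Tuba1b and Tubb5 had r = 0.91 (rho = 0.95, permutation test, adjusted p = 0.0169) and passed when 12 of the 14 libraries were left out in turn, with an adjusted p of at most 0.0540. Tubb5 also passed with Tubb4b (r = 0.90, rho = 0.78, permutation test, adjusted p = 0.0370 for r and 0.186 for rho) and Tubb2a (r = 0.88, rho = 0.73, permutation test, adjusted p = 0.0169 and 0.208). Cct6a passed with Tubb5 (r = 0.87, rho = 0.86, permutation test, adjusted p = 0.0169 for r and 0.0492 for rho) and Tubb2a (r = 0.85, rho = 0.81, permutation test, adjusted p = 0.0169 and 0.0906). Its r with Tubb5 was 0.98 in KO and 0.59 in WT, and its r with Tubb2a 0.87 in KO and 0.83 in WT. Each of these 4 pairs passed in 10 of the 14 cases in which a library was left out. Within CCT, 1 of 28 pairs passed, Tcp1 and Cct3 (r = 0.88, permutation test, adjusted p = 0.0276 for r and 0.0973 for rho), which fell to 0.65 without the 2 libraries farthest out. The divergent neighbours Hspd1 and Hspe1 had r = 0.82 (rho = 0.76, permutation test, adjusted p = 0.0276 for r and 0.119 for rho). Their relation rests in part on replicate 1 of both genotypes, in which Hspd1 had 162 CPM in KO and 169 CPM in WT, since r was 0.53 without the 2 libraries farthest out and the adjusted p passed in 7 of 14 cases in which a library was left out. For Hspd1, 4.24% of the exon length overlaps Hspe1, and the strand setting is not given, so some reads may be assigned to either gene. Of the 100-base words of Hspd1, 23.9% occur in another gene, most often Hspd1-ps3. Whether the overlap or the shared run of heat shock units contributes to this r was not tested.

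Levels of other cell types and of dividing cells were then set beside each gene. The summed CPM of 4 lists (neuron markers, astrocyte markers, proliferation genes and immediate early genes) gave 152 relations with the 38 genes, of which 6 passed an adjusted p under 0.05 with both Pearson's r and Spearman's rho. All 6 were tubulins and all were positive. How many of all tested genes would pass with these lists was not computed. The relations are therefore not read as particular to these genes. Tuba1b varied with the proliferation genes (r = 0.93, rho = 0.95, permutation p = 1e-05, the smallest these permutations can give, adjusted p = 0.000760), with r = 0.94 in KO, 0.91 in WT and 0.92 without the 2 libraries farthest out. Tubb5 did so as well (r = 0.90, rho = 0.89, permutation test, adjusted p = 0.0134), with r = 0.87 without these 2 libraries.

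Tubulins of the group around Tuba1a were correlated with the astrocyte markers. Tubb2b had r = 0.92 (rho = 0.88, permutation test, adjusted p = 0.000760) and Tuba1a r = 0.90 (rho = 0.87, permutation test, adjusted p = 0.00101), and both kept r of 0.89 without the 2 libraries farthest out. Tubb6 had r = 0.87 (rho = 0.81, permutation test, adjusted p = 0.0106), and Tubb3, the last of the 6 and named after its values were seen, r = 0.81 (rho = 0.81, permutation test, adjusted p = 0.0329), with 0.66 in KO and 0.93 in WT. The WT library with the most astrocyte RNA was replicate 4, with 299 CPM of these markers. Its Tuba1a stood at 178 and its Tubb2b at 67.3 CPM. In the WT library with the least, replicate 5 with 37.8 CPM, they stood at 69.8 and 23.9 CPM. Among the KO libraries replicate 7 had the most, 159 CPM, with Tuba1a at 118 and Tubb2b at 43.5 CPM. Both were higher in KO replicate 1, at 145 and 52.3 CPM, with 122 CPM of the markers. KO replicate 5 had the least, 33.0 CPM, with 64.3 and 24.3 CPM.

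The neuron markers passed with none of the 38 genes (0 by either coefficient). The 4 tubulins had r of 0.64 to 0.70 with them, with adjusted p of 0.113 to 0.156 (permutation test), and the neuron and astrocyte levels were themselves correlated (r = 0.72 over the 14 libraries, given as a description). Whether the astrocyte relation differs from the neuron relation was not tested. The immediate early genes also passed with none. Without WT replicate 4 the relations past the threshold fell from 6 to 3 (Tuba1a, Tubb2b and Tuba1b), with adjusted p of 0.104 for Tubb3, 0.0574 for Tubb6 and 0.0632 for Tubb5. Without WT replicate 5, Tubb3 (0.127) and Tubb6 (0.0599) did not pass. Tubb5 had an adjusted p of 0.0628 without KO replicate 6, and Tubb3 had between 0.0513 and 0.0884 without KO replicate 1, 5 or 7 or WT replicate 3 or 7.

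**Figure D5:**
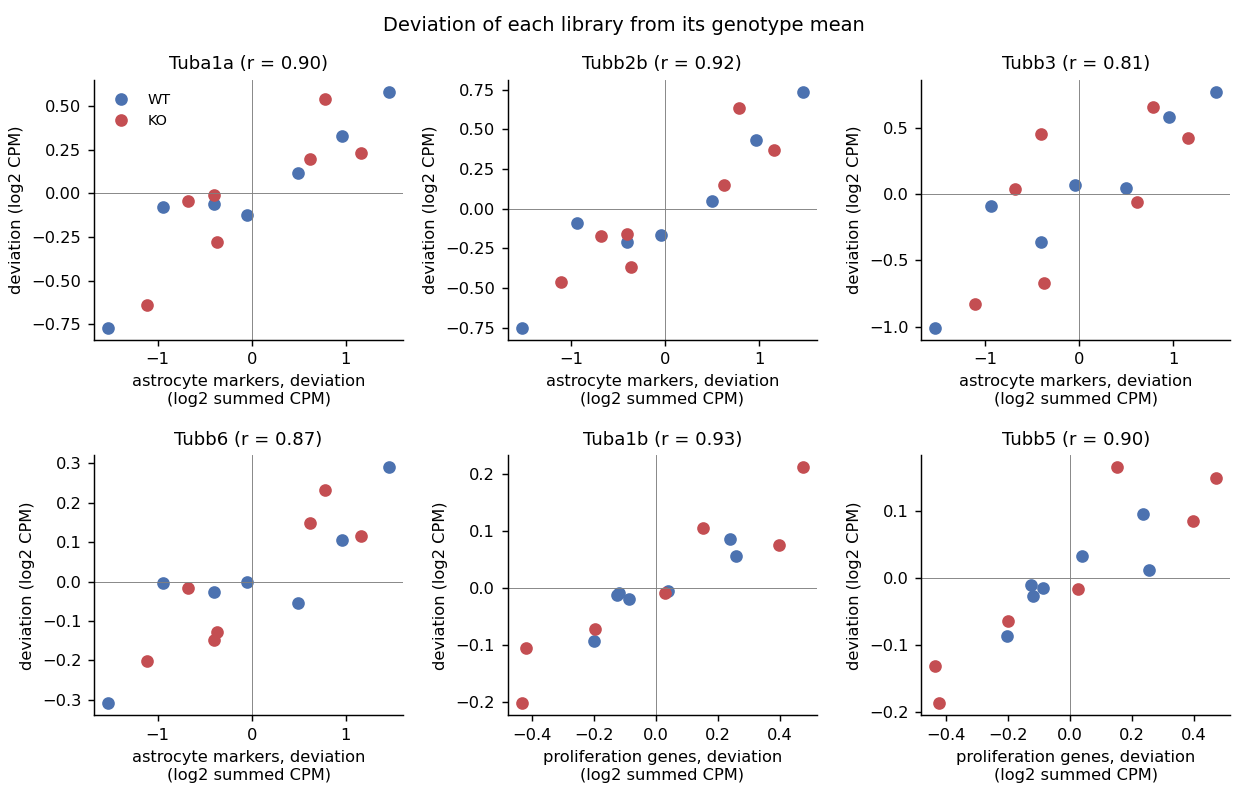
Deviation of each library from its genotype mean for 6 tubulins (log2 CPM, vertical) against the deviation of the astrocyte markers (4 panels) or the proliferation genes (2 panels) in log2 summed CPM, with WT in blue and KO in red. The points rise from lower left to upper right in each panel, with Pearson's r between 0.81 and 0.93.

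In KO over WT, 12 of 12 tested astrocyte markers and 27 of 27 proliferation genes had a log2 fold change below 0 (medians -0.72 and -0.11), and 0 of either list passed an adjusted p (edgeR quasi-likelihood test). At an unadjusted p under 0.05, 1 astrocyte marker, S100b, and 0 proliferation genes were lower, where 1.62% of all tested genes were. Of the neuron markers 16 of 17 and of the oligodendrocyte lineage markers 8 of 10 also had a log2 fold change below 0 (medians -0.29 and -0.28), as did 6 of 10 endothelial and mural markers (median -0.17), while 13 of 14 microglia markers and 18 of 22 immediate early genes had one above 0 (medians 0.04 and 0.05), beside 49.2% of all tested genes below 0. None of these genes passed an unadjusted p (0 in each of these 5 lists). With the astrocyte marker level as a covariate, the median log2 fold change of the tubulins was -0.03, where it was -0.06 without it, and that of the CCT subunits was -0.05 both ways. Both fits used the same libraries and no spread was computed for the change of the tubulin median, so nothing is read from its size. The part of other cell types in the KO over WT values of the tubulins was not tested.

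The rest of the folding machinery gave no call either. Of 57 other heat shock proteins and cochaperones 39 had a log2 fold change below 0, with a median of -0.02, and 0 passed an adjusted or unadjusted p under 0.05 (edgeR quasi-likelihood test), where 1.62% of all tested genes were lower and 1.75% higher at an unadjusted p. St13, which links HSP70 and HSP90, was the nearest (-0.05, SE 0.02), followed by Fkbp4, an HSP90 cochaperone (-0.06, SE 0.04), and Hspa12b (-0.28, SE 0.17). Of 15 other tubulins and tubulin folding cofactors tested, 10 lay below 0, with a median of -0.03, and 1 passed an unadjusted p in the lower direction (background 1.62%), Tubb4a, at 4.54 ± 1.31 CPM in KO and 6.07 ± 1.35 CPM in WT (SD, n = 7). Of 13 other chaperonin partners and prefoldin-like genes 10 lay below 0 (median -0.03), with 0 past an unadjusted p, and among them Ruvbl2 had -0.05 and Pih1d1 0.05 (SE 0.03 each).

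The gamma-actin gene Actg1, the other cytoplasmic actin, had 1042 ± 51.4 CPM in KO and 1104 ± 62.1 CPM in WT (SD, n = 7), a log2 fold change of -0.08 (SE 0.04) that lay within the range of the folding genes. The muscle actins Acta2 and Acta1 had -0.52 (SE 0.64) and -0.13 (SE 0.37), and Acta2 had only 4.29 ± 3.30 CPM in KO and 6.15 ± 5.68 CPM in WT (SD, n = 7). The 25 genes of the endoplasmic reticulum stress response were split, with 10 below and 15 above 0 and a median of 0.01, and 1 passed an unadjusted p in the higher direction (background 1.75%), Syvn1, a ubiquitin ligase of that compartment (log2 fold change 0.04, SE 0.02). Hspa5, the member of the 38 that this response is best known to raise, had 681 ± 22.2 CPM in KO and 678 ± 17.6 CPM in WT (SD, n = 7).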

How the data were processed

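Raw counts per Ensembl gene, 1 column per library, were deposited by the authors for 7 KO and 7 WT libraries, with no normalization. Groups and replicate numbers came from the sample titles. The submitters' processing notes name Trimmomatic 0.36, STAR 2.5.2b, featureCounts (Subread 1.5.2), DESeq2 and GRCm38. The strand setting, the annotation release, the treatment of reads with several matches and the batch of each library, which the study used as a covariate, are not given in the sources used here. Symbols, positions and exon lengths were taken from the GENCODE M21 annotation of GRCm38, to which 49056 of 49315 genes matched.

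Low counts were removed by filterByExpr (at least 10 counts, and 15 in total), libraries were scaled by TMM, and KO was tested over WT, two-sided, by edgeR's quasi-likelihood method (version 4.0.16, R 4.3.3) with Benjamini-Hochberg adjustment over all 15700 tested genes. DESeq2 1.42.0, other scalings and filters, a replicate block, marker levels as covariates and the removal of each library were tried as alternatives. CPM used TMM-scaled library sizes, and log2 CPM a prior count of 1. Levels per length divide CPM by the union of a gene's exons. Correlations used deviations from genotype means and were computed with Python 3.11.15, numpy 2.4.6 and pandas 2.3.3. The test of pairs of genes was added after the data had been seen. Both the fit and the correlation test were tested on simulated data with known changes. P-values measure the spread between pools of pups.

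The 38 genes and all gene lists were chosen with earlier results of these data known. Values are given in full for the gene of each class with the highest level per length, that with the largest absolute log2 fold change and each gene with an unadjusted p under 0.05, for up to 3 genes with the smallest p of each folding or actin list and for up to 5 relations with the smallest p. At 38875344 counts or more per library, all but Hspa1a and Hspa1b had at least 113 counts in each library. Promoter windows are RefSeq's (GRCm38.p6). Protein sequences were not used here.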

Additional observations from a re-analysis of the deposited data

Results flagged for a closer look

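Within each genotype, the highest and the lowest of the 7 libraries were compared with the others for the 38 genes and 12 gene lists by the gap to the nearest library divided by the whole range (Dixon's ratio). Of 100 groups examined 4 were past the 95% critical value for 7 samples, and chance alone gives about 1 in 20.

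Replicate 1 of both genotypes accounted for 3 of them. WT replicate 1 had the lowest beta-actin, with 7174 CPM where the other WT libraries lay between 7931 and 8267 CPM (ratio 0.707), and the highest Hspd1, the mitochondrial HSP60, with 169 CPM where the others lay between 145 and 152 CPM (ratio 0.708). KO replicate 1 had the highest Hspa4, an HSP110-type chaperone, with 294 CPM where the other KO libraries lay between 273 and 281 CPM (ratio 0.602). WT replicate 4, the library with the most astrocyte RNA, had the highest Tuba1c, with 77.4 CPM where the others lay between 65.5 and 69.8 CPM (ratio 0.625).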

How the results depend on the processing

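The count of folding and cytoskeletal genes past an adjusted p of 0.05 was 0 in each of the 24 other fits, and the count of higher genes at an unadjusted p was 0 as well. The count of lower genes at an unadjusted p, 5 as reported, was 11 with upper-quartile factors, 11 with library size only, 8 with no filter and 9 with DESeq2, and 4 to 12 when each library was left out. The cause was not tested. The labels do not say whether libraries with the same replicate number shared a day or batch. Correlations of the deviations of same-numbered libraries lay between -0.196 and 0.743, with number 5 the highest and 4 of 7 numbers below 0. These values cannot settle whether the numbers pair the samples. A replicate block by number gave 10 lower genes in edgeR (2.7% of all tested genes) and 11 in DESeq2 (1.89%). The median log2 fold change of prefoldin and Pdcl3 ranged from -0.043 to 0.013 when each library was left out, and was above 0 without WT replicate 1. The relations with gene lists numbered 3 to 8 and the pairs of genes 8 to 19 under the same removal. Without number 5 of both genotypes, an alternative chosen after seeing the data, there were 6 relations, of which 4 were shared. The astrocyte relations of Tubb3 (r = 0.67, adjusted p = 0.204) and Tubb6 (r = 0.78, adjusted p = 0.0913) did not pass there (permutation test).

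No gene's log2 fold change moved by more than the SD within genotypes in 910 recomputed values. Leaving out a single library can hardly move a fold change that far, so nothing is read from this count. In every fit 28 genes, all 8 CCT subunits among them, stayed below 0. The share of all tested genes that did so was not computed. The fits reuse the same libraries and the genes were chosen by this contrast, so nothing is read from this count either. The sign changed in at least 1 fit for Hspa1a, Hspa5, Hspa8, Pdcl3, Pfdn4, Pfdn6, Tuba4a and Tubb3. A CPM of at least 1 in at least 7 libraries removed Hspa1a and Hspa1b, whose 20 to 66 counts per library limit their precision.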
